A study of Mus musculus with 21 samples.

Results

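Imprinted genes are expressed mainly or only from the allele inherited from one parent. The 46 imprinted genes described here were taken from a list of well-studied mouse imprinted loci and matched by symbol to the 51467 genes of the count tables; they lie in 20 clusters. By what is known of each gene, 24 are expressed from the paternal allele, 11 from the maternal allele, 9 from the maternal allele in some tissues only, and 2 from an allele that depends on the isoform. Allelic origin itself was not measured, and every level given is the sum over both alleles.

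The parental alleles are told apart by DNA methylation at imprinting control regions, which is set in the germ line and kept in the embryo by factors such as Zfp57 and Trim28. Where the control region carries the promoter of a paternally expressed gene, methylation silences the maternal copy, and maternally expressed neighbours are often kept silent in cis on the paternal chromosome by a long non-coding RNA such as Kcnq1ot1. Imprinted genes act in growth, placentation and metabolism, and mouse embryonic stem cells (ESCs) are known for losing or gaining imprints in culture.

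The study knocked out Ddx6, a DEAD box helicase known from P-bodies and from microRNA-mediated repression, to ask whether it links translation to RNA stability. Besides polysome profiling of translation, which is not part of the data described here, the study compared nascent with total RNA. It measured nascent RNA, labelled with 500 µM 4-thiouridine (4sU) for 30 min, and total RNA of the same 7 cultures of V6.5 mouse ESCs kept in LIF, 2i inhibitors and serum. There were 3 wild-type (WT) cultures and 2 cultures of each of 2 Ddx6 knockout (KO) clones made by CRISPR-Cas9, in 14 libraries. The guide cut in Ddx6; one clone carries an insertion and the other a deletion, and the sources used here do not say which clone number has which. Each clone is a single line, so the clones are replicates of the knockout, while the cultures of a clone are repeats of 1 line.

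The 4sU libraries held between 2441639 and 3570192 counts and the total RNA libraries between 5724179 and 7369651. Levels are given in CPM, counts scaled to a library total of 1000000, and 3 counts are at most 1.23 CPM in the former and 0.524 CPM in the latter. Total Ddx6 RNA was at 314, 357 and 363 CPM in WT, 59.6 and 70.7 CPM in clone 1 and 23.9 and 22.5 CPM in clone 2, a log2 change of -3.12 (± 0.32 SE, edgeR quasi-likelihood adjusted p = 9.22e-06). All 10 ESC markers passed the filter on low counts. In KO against WT total RNA, 4 of them were higher and 3 lower at an adjusted p under 0.05, where 19.5% and 31% of all genes were. Of 10 fibroblast markers, Postn was at 0 in every total RNA library, and Col1a2, Col3a1, Dcn and Lum averaged at most 0.234 CPM of total RNA in any group. Thy1 averaged 2.37 CPM of total RNA in WT, 7.30 in clone 1 and 7.52 in clone 2 (log2 change 1.47, adjusted p = 2.02e-06). Col1a1 averaged 2.17, 4.57 and 5.13 CPM (0.97, adjusted p = 0.00486). Fn1 and Vim went the other way, by -0.86 and -0.20 (adjusted p = 3.31e-20 and 0.0444). The fibroblast markers summed to 1041 to 1141 CPM of total RNA in WT and 685 to 736 CPM in the KO cultures, almost all of it Fn1 and Vim, and their part in the results was not tested. The 8 trophoblast markers summed to 49.5 to 62.6 CPM in WT and 54.8 to 63.9 CPM in the KO cultures. Of the 4 tested, Krt7 was higher (1.09, adjusted p = 0.00496) and Eomes lower (-0.37, adjusted p = 0.0308). The 8 endoderm markers summed to 6.26 to 9.26 CPM in WT and 8.61 to 11.1 CPM in KO, and 1 of 2 tested was higher. The 6 primed epiblast markers summed to 133 to 147 CPM in WT and 85.3 to 95.7 CPM in KO. All 3 tested were lower, among them Otx2 (-2.53, adjusted p = 7.98e-15). The part of these markers was not tested. Of the members, 38 reached 3 CPM in 3 or more libraries and were tested, among 14518 genes. The 8 others, Slc22a18, Kcnq1, Osbpl5, Zim1, Dlk1, Rtl1, Magel2 and Airn, were below that filter. A gene passes the test below at an adjusted p under 0.05, and is called where its log2 fold change is also above 1 in size.

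Some members differed between the 2 KO clones. They include the paternally expressed genes Peg3, Mest, Plagl1 and Kcnq1ot1, whose promoters are known to lie in control regions methylated on the maternal allele. Their RefSeq promoter windows (GRCm38.p6, 250 bases before to 50 bases after the start) are shown 5′ to 3′ with every CG dinucleotide, the site of DNA methylation, in capitals. The windows are chr7:6730370-6730669 (minus strand) for Peg3, chr6:30737800-30738099 (plus strand) for the shorter form of Mest, chr10:13090582-13090881 (plus strand) for Plagl1 and chr7:143296498-143296797 (minus strand) for Kcnq1ot1.
Peg3: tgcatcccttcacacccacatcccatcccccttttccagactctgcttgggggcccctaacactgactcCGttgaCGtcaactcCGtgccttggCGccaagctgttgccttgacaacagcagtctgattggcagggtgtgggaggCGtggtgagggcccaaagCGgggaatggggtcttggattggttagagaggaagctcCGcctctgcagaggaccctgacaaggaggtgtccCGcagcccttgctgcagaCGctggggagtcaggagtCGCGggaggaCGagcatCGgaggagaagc
Mest: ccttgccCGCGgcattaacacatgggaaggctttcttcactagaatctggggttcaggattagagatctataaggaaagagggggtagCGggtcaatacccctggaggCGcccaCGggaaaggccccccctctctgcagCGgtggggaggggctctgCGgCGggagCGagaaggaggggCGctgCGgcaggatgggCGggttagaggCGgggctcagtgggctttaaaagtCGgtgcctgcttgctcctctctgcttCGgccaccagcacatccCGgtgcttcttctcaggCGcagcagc
Plagl1: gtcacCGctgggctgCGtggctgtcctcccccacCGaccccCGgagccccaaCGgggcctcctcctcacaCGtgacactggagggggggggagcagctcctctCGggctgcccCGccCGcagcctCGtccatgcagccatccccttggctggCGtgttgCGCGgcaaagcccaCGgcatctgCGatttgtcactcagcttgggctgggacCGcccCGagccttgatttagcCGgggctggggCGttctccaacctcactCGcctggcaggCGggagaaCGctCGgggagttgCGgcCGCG
Kcnq1ot1: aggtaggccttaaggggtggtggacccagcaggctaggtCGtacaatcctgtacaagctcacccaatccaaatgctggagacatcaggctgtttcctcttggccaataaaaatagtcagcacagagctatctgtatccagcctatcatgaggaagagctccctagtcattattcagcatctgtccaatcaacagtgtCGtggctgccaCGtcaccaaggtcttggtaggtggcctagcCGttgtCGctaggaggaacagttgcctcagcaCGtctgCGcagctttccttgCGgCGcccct
They hold 13, 17, 26 and 9 CG dinucleotides, against a median of 7 over all 32851 promoter windows of that length and 15 over the 55 windows of the 36 members with an entry. The hexamer TGCCGC, which Zfp57 binds when its CG is methylated, was searched on both strands. It occurred 2 times in the Mest window and 1 time in the Plagl1 window, and these letters were in neither the Peg3 nor the Kcnq1ot1 window. In all, 25.5% of the members' windows and 11.6% of all windows hold it. The hexamer itself contains a CG, of which the members' windows hold more, and the shares were not matched for this. Windows of the same gene can also overlap, as 2 of Mest do, so no enrichment is read from these shares.

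Clone 2 was set against clone 1 in a fit of 6 groups (WT, clone 1 and clone 2 in each assay). In total RNA 10 of 38 members passed the test, or 26.3%, where 43 of all 14518 genes did, or 0.296%. Of the 10, 6 were higher in clone 2 (Peg3, Kcnq1ot1, Mest, Plagl1, Impact and Peg10), and all 6 are paternally expressed. The 4 that were lower in clone 2 (H19, Cdkn1c, Phlda2 and Grb10) are all maternally expressed. In nascent RNA 6 of 38 members passed, or 15.8%, against 0.172% of all genes. Kcnq1ot1, Peg3, Mest and the paternally expressed Zrsr1 were higher and H19 and Grb10 were lower. Members thus made up 23.3% of the genes that passed in total RNA and 24.0% of those that passed in nascent RNA. Above a log2 fold change of 1 in size, total RNA held 5 members (Peg3 higher; H19, Cdkn1c, Phlda2 and Grb10 lower) against 0.0827% of all genes, and nascent RNA held 2 (Peg3 and H19) against 0.0689%.

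**Figure D1:**
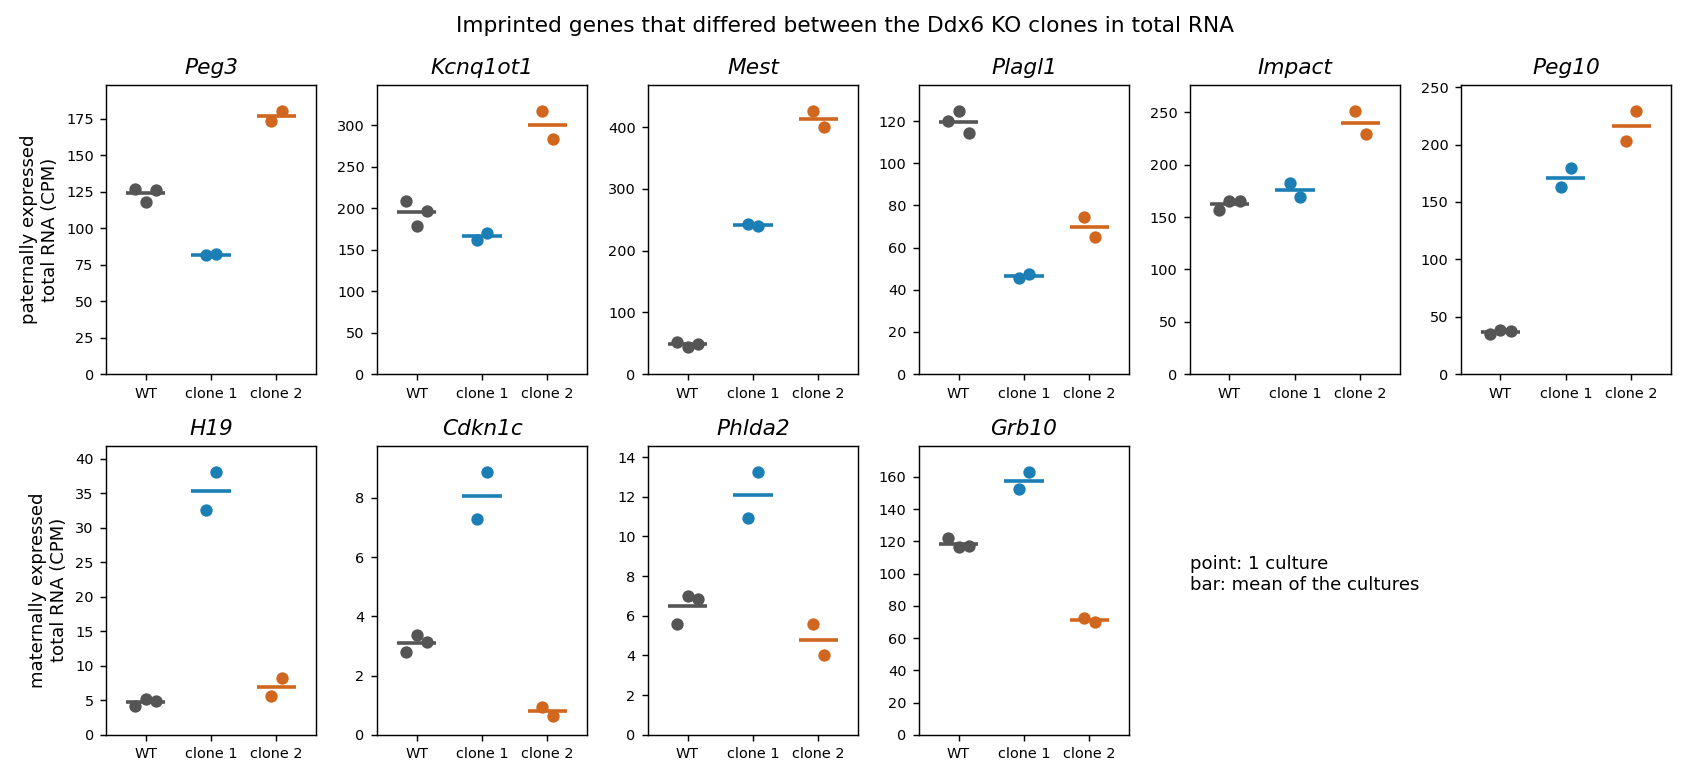
Total RNA in CPM (linear axes from 0) of the 10 imprinted genes that differed between the KO clones, with 1 point per culture and a bar at the mean of 3 WT, 2 clone 1 and 2 clone 2 cultures. The 6 paternally expressed genes in the upper row are higher in clone 2 than in clone 1, the 4 maternally expressed genes in the lower row are lower, and no clone 1 culture overlaps a clone 2 culture.

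Among the paternally expressed genes, Peg3, which encodes a zinc finger protein that acts in growth and maternal behaviour (chr7:6703892-6730421, mm10), had 127, 118 and 126 CPM of total RNA in WT, 81.3 and 82.5 in clone 1 and 173 and 180 in clone 2. WT lay between the clones, and no culture of any group overlapped another group. In total RNA the clones were 1.11 ± 0.08 apart as a log2 difference (adjusted p = 1.57e-16). Its nascent RNA was at 45.9, 48.1 and 52.2 CPM in WT, 44.6 and 43.1 in clone 1 and 85.8 and 91.6 in clone 2, a difference between the clones of 1.01 ± 0.12 (adjusted p = 7.03e-09). Clone 2 stood above both other groups. After TMM scaling nascent Peg3 was at -0.36 in clone 1 against WT (adjusted p = 0.0153) and at 0.66 in clone 2 (adjusted p = 5.37e-07), again on opposite sides of WT.

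Kcnq1ot1, the long non-coding RNA that silences its cluster in cis (chr7:143212155-143296549), had 209, 179 and 197 CPM of total RNA in WT, 162 and 170 in clone 1 and 317 and 284 in clone 2. The clones differed by 0.86 ± 0.08 in total RNA (adjusted p = 3.56e-12). Its nascent RNA was at 1010.0, 1108 and 969.9 CPM in WT, 925 and 858 in clone 1 and 1461 and 1660.1 in clone 2, a difference of 0.81 ± 0.07 (adjusted p = 5.77e-12). In both assays clone 2 was highest and clone 1 lowest, without overlap.

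Mest, which encodes a hydrolase-like protein of mesoderm and placenta (chr6:30733506-30748465), had 52.8, 43.96 and 48.1 CPM of total RNA in WT, 243 and 240 in clone 1 and 426 and 401 in clone 2. Both clones stood well above WT, and clone 2 above clone 1 by 0.78 ± 0.08 (adjusted p = 1.47e-11). The nascent values were 24.6, 17.5 and 27.4 CPM in WT, 121 and 116 in clone 1 and 211 and 188 in clone 2, with a difference between the clones of 0.75 ± 0.10 (adjusted p = 2.05e-07).

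Plagl1, a zinc finger transcription factor that arrests the cell cycle, lay below WT where Mest lay above it. Its total RNA was at 120, 125 and 114 CPM in WT, 45.7 and 47.4 in clone 1 and 74.5 and 64.9 in clone 2, and the clones differed by 0.59 ± 0.10 (adjusted p = 1.12e-04). Both clones were below WT and clone 1 was lowest. Impact, which inhibits the kinase Gcn2, differed by 0.45 ± 0.08 (adjusted p = 2.95e-04) and Peg10, a retrotransposon-derived gene needed in the placenta, by 0.33 ± 0.08 (adjusted p = 0.0459), clone 2 being higher in each. Peg10 also passed in 8 of 16 other settings, but not when any 1 of the 4 KO cultures or WT replicate 2 was left out. Impact no longer passed without clone 1 replicate 2 or clone 2 replicate 1, nor did Plagl1 without clone 2 replicate 1 (highest adjusted p = 0.103). Zrsr1, a splicing factor relative whose gene lies in an intron of Commd1, passed in nascent RNA only (0.48 ± 0.11, adjusted p = 0.0165). In total RNA it was at 0.45 ± 0.12 (adjusted p = 0.109). Its nascent RNA no longer passed when any 1 of the 4 KO cultures was left out (highest adjusted p = 0.394).

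Among the maternally expressed genes, Grb10, an adaptor that inhibits insulin and growth factor signalling (chr11:11930508-12037401), had 122, 116 and 117 CPM of total RNA in WT, 152 and 163 in clone 1 and 72.2 and 70.1 in clone 2. The order was the mirror image of Peg3, with WT between the clones and no overlap. The clones differed by -1.15 ± 0.10 in total RNA (adjusted p = 3.23e-14) and by -0.94 ± 0.16 in nascent RNA (adjusted p = 4.56e-04), where the values were 24.2, 33.6 and 24.1 CPM in WT, 48.5 and 42.8 in clone 1 and 18.1 and 29.1 in clone 2. The nascent pass was lost without clone 1 replicate 1 or clone 2 replicate 1, and in the paired-end run alone.

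H19, a non-coding RNA transcribed from the maternal allele beside Igf2 (chr7:142575558-142578120), had 4.19, 5.19 and 4.84 CPM of total RNA in WT, 32.6 and 38.1 in clone 1 and 5.70 and 8.20 in clone 2. Clone 1 alone was high, and both other groups were within a range of 4.19 to 8.20 CPM. The clones differed by -2.36 ± 0.19 in total RNA (adjusted p = 1.56e-14) and by -2.24 ± 0.39 in nascent RNA (adjusted p = 4.21e-04). Nascent H19 rested on few reads, 1, 6 and 2 counts in WT, 35 and 32 in clone 1 and 5 and 10 in clone 2.

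Cdkn1c, an inhibitor of cyclin-dependent kinases, and Phlda2, which limits placental growth, lie in the cluster that Kcnq1ot1 silences. Cdkn1c had 2.80, 3.36 and 3.13 CPM of total RNA in WT, 7.29 and 8.88 in clone 1 and 0.950 and 0.643 in clone 2, the last being 7 and 4 counts. Cdkn1c reached 3 CPM in 4 libraries, 2 of WT and the 2 of clone 1 in total RNA, so it was tested because of the groups where it is high; it was below the stricter filter of 3 CPM in every library of 1 assay, and over the 16 alternatives that gave a value, no filter among them, the clones differed by -3.61 to -3.05 (highest adjusted p = 9.85e-04). Phlda2 had 5.59, 7.02 and 6.83 CPM in WT, 10.9 and 13.2 in clone 1 and 5.56 and 4.02 in clone 2. Clone 1 was highest for both. The clones differed by -3.28 ± 0.46 for Cdkn1c (adjusted p = 1.47e-06) and by -1.32 ± 0.26 for Phlda2 (adjusted p = 0.0023), and the call for Phlda2 was lost with DESeq2 and without clone 1 replicate 2 or clone 2 replicate 2. In this cluster the non-coding RNA was therefore higher in clone 2 while these 2 coding genes were lower. Its other tested members, Nap1l4, Cd81, Tssc4 and Ascl2, which are maternally expressed in some tissues only, lay between -0.15 and 0.18.

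Over whole classes, 16 of 20 tested paternally expressed members lay above 0 in total RNA of clone 2 against clone 1, with a median of 0.35 and a range of -0.58 to 1.11, and 6 of the 20 passed. All 8 tested maternally expressed members lay below 0, with a median of -0.61 and a range of -3.28 to -0.05, and 4 of the 8 passed. The 8 members with tissue-restricted imprinting had a median of -0.02 and none passed, nor did the 2 isoform-dependent members. The median over all genes was 0.00. In nascent RNA the class medians were 0.26, -0.55, -0.04 and -0.03. The maternally expressed members that did not pass in total RNA were Meg3, Rian and Mirg of the Dlk1-Dio3 cluster and Igf2r, at -0.07 to -0.05.

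**Figure D2:**
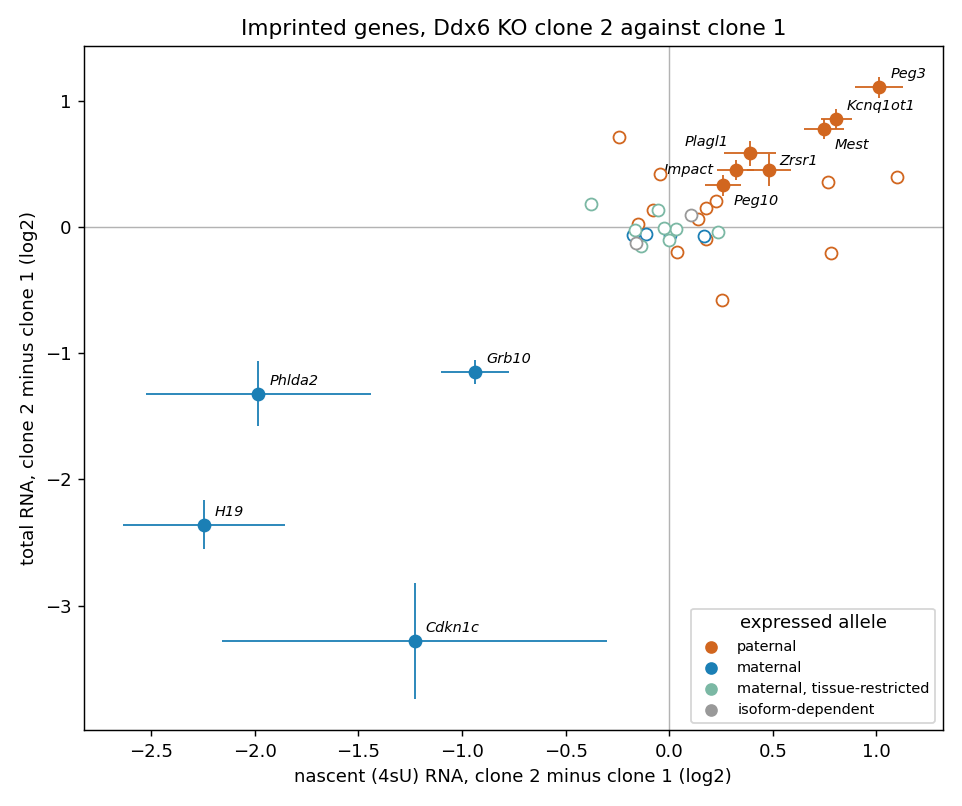
Difference between clone 2 and clone 1 (log2) in nascent RNA on the horizontal axis and in total RNA on the vertical axis for the 38 tested imprinted genes, coloured by the expressed allele; filled points passed in at least 1 assay and carry their SE, open points passed in neither. The filled paternally expressed genes sit above 0 on both axes, between 0.33 and 1.11 in total RNA, and the filled maternally expressed genes below 0 on both.

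No member passed the test of the clones for the ratio of total to nascent RNA. Of the 10 members that passed in total RNA, 5 also passed in nascent RNA (H19, Grb10, Kcnq1ot1, Peg3 and Mest), and Cdkn1c, Phlda2, Plagl1, Impact and Peg10 did not. The stability comparison between the clones gave 1 gene of 14518, or 0.00689%, and 0% were called. At an unadjusted p under 0.05, 1 of 38 members differed in stability, against 11 in nascent and 13 in total RNA. DESeq2 and limma-voom also gave 0 members. The stability differences of the first group were 0.10 ± 0.14 for Peg3, 0.05 ± 0.11 for Kcnq1ot1, 0.03 ± 0.12 for Mest, -0.21 ± 0.19 for Grb10 and -0.12 ± 0.53 for H19. Those of the second were 0.20 ± 0.16 for Plagl1, 0.13 ± 0.12 for Impact, 0.07 ± 0.12 for Peg10, 0.66 ± 0.62 for Phlda2 and -2.05 ± 1.21 for Cdkn1c, the last 2 with wide errors.

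Of 98 tested genes within 200 kb of a member, 1 passed between the clones in each assay, Nespas. The medians of the 20 chromosomes, the autosomes and X, lay between -0.01 and 0.03 in total RNA. Nespas, an antisense RNA of the Gnas cluster that is itself paternally expressed, was 0.80 ± 0.13 higher in clone 2 in total RNA (adjusted p = 1.07e-04). Dio3, which lies at the far end of the Dlk1-Dio3 cluster, was 0.43 ± 0.10 lower (adjusted p = 0.0151) although its paternal allele is the more active. Both are outside the list and were chosen after their values were seen. The 33 other genes that passed in total RNA include Ddx6 itself and 3 Y-linked genes, of which Ddx3y had 54.7, 52.0 and 54.6 CPM in WT, 114 and 106 in clone 1 and 0.271 and 0.322 in clone 2. The part of the Y-linked difference and of the Ddx6 level in the members' values was not tested.

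The 16 factors listed as keeping imprints or DNA methylation, all tested, gave 0 that passed between the clones in either assay, at -0.13 to 0.76 in total RNA. Of all genes 0.172% passed in nascent and 0.296% in total RNA, too few for 0 of 16 to set these factors apart. The upper end was Dppa3, which protects maternal methylation in the zygote and was low here, at 1.55 CPM in clone 1 and 2.69 in clone 2 (0.76 ± 0.46, adjusted p = 0.838). Zfp57 and Trim28 were at 0.04 ± 0.07 and -0.13 ± 0.06. The lowest adjusted p was 0.282 in total RNA (Dnmt3a) and 0.85 in nascent RNA (Dnmt1). Against WT, the 2 clones together had higher nascent RNA for 8 of the 16 and lower for 4, where 20.6% and 21% of all genes passed. Total RNA was higher for 5, among them the demethylating enzyme Tet2 (0.91, adjusted p = 2.49e-21), and lower for 8, among them Trim28 (-0.58, adjusted p = 5.66e-15). Of all genes 19.5% passed as higher and 31% as lower in total RNA.

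Each clone was also set against WT in the same fit, a comparison added after the clones were seen to differ, in which both clones share the WT cultures. In total RNA 23 of 38 members passed in clone 1, or 60.5%, against 45% of all genes, and 21 in clone 2, or 55.3%, against 44.7%. Peg3 was at -0.75 in clone 1 (adjusted p = 2.07e-12) and at 0.36 in clone 2 (adjusted p = 2.79e-05). Kcnq1ot1 was at -0.39 and 0.47 (adjusted p = 1.99e-05 and 1.18e-07). Grb10 was at 0.26 and -0.89 (adjusted p = 0.00799 and 1.37e-12), and Cdkn1c at 1.22 and -2.06 (adjusted p = 0.00142 and 5.35e-04). For these 4 genes the clones thus passed on opposite sides of WT, though Cdkn1c was below the filter when clone 2 and WT were fitted alone. H19 was at 2.73 in clone 1 (adjusted p = 1.26e-19) and at 0.37 in clone 2 (adjusted p = 0.219), and Phlda2 at 0.74 (adjusted p = 0.00493) and -0.58 (adjusted p = 0.0634).

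With both clones pooled, the knockout was compared with WT. In nascent RNA 8 of 38 members passed with higher values and 9 with lower values, or 21.1% and 23.7%, against 20.6% and 21% of all genes. In total RNA 8 were higher and 12 lower, or 21.1% and 31.6%, against 19.5% and 31%. In stability, the change of the ratio of total to nascent RNA, 0 were higher and 4 lower, or 10.5%, against 3.79% and 8.58% of all genes, and 7 members had an unadjusted p under 0.05. The shares for nascent and total RNA are thus close to the background of all genes. Called members numbered 5 in nascent RNA (10.9% of all genes), 6 in total RNA (10.1%) and 1 in stability (1.08%). Genes with a change between the clones in opposite directions have a large error here, as Peg3 (-0.09 ± 0.32 in total RNA), Kcnq1ot1 (0.11 ± 0.30) and Grb10 (-0.21 ± 0.31), none of which passed.

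The largest increases were those of Peg10 and Mest. Peg10 had 34.6, 38.8 and 37.6 CPM of total RNA in WT, 163 and 179 in clone 1 and 203 and 229 in clone 2, and rose by 2.23 ± 0.14 (adjusted p = 3.36e-09). In nascent RNA it had 26.2, 35.0 and 40.5 CPM in WT, 260 and 248 in clone 1 290 and 319 in clone 2, and rose by 2.82 ± 0.16 (adjusted p = 2.65e-09). Mest rose by 2.61 ± 0.30 in total RNA (adjusted p = 2.24e-05) and 2.58 ± 0.43 in nascent RNA (adjusted p = 5.56e-04). For both genes the lowest KO culture was above the highest WT culture in each assay.

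Sgce, an epsilon-sarcoglycan gene that shares the imprinted promoter region of Peg10, rose too. Its nascent RNA was at 3.28, 3.70 and 3.34 CPM in WT, 7.89 and 8.83 in clone 1 and 8.06 and 8.12 in clone 2 (1.04 ± 0.31, adjusted p = 0.00533), and total RNA at 3.67, 6.56 and 5.69 in WT, 6.46 and 8.33 in clone 1 and 10.6 and 9.32 in clone 2 (0.54 ± 0.21, adjusted p = 0.0256). The total RNA of 1 clone 1 culture overlapped WT, and the total RNA pass was lost in clone 1 alone, without WT replicate 1 and without clone 2 replicate 1.

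These 3 genes and Nap1l5, a nucleosome assembly protein gene, are the members on chromosome 6, and that chromosome as a whole was higher in the KO cultures. Its 735 tested genes had a median of 0.53 in nascent and 0.43 in total RNA, where the medians of the other chromosomes lay between -0.09 and 0.16 and between -0.18 and 0.07. On chromosome 6, 3 of 4 members passed as higher in each assay, with medians of 1.81 and 1.39. Of all genes 20.6% passed as higher in nascent and 19.5% in total RNA. The share among all tested genes of chromosome 6 was not computed, so these counts do not set the members apart from their chromosome. Of 8 tested neighbours within 200 kb there, 5 rose in nascent and 7 in total RNA, with medians of 0.80 and 0.46. They include Mir335, which lies within Mest on the same strand (2.54 in nascent and 2.69 in total RNA). Copg2, which overlaps Mest in the opposite orientation, is also among them (0.27 in total RNA, adjusted p = 2.75e-04). Neighbours are genes outside the list, and whether they are imprinted themselves was not examined. Off chromosome 6, 5 of 34 members were higher and 9 lower in nascent RNA, and 5 higher and 12 lower in total RNA, with medians of 0.00 and 0.02. As lower, 21% of all genes passed in nascent and 31% in total RNA. Between the clones the chromosome 6 median was 0.01 in total RNA. The part of the chromosome in the values of Peg10, Sgce and Mest was not tested.

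**Figure D3:**
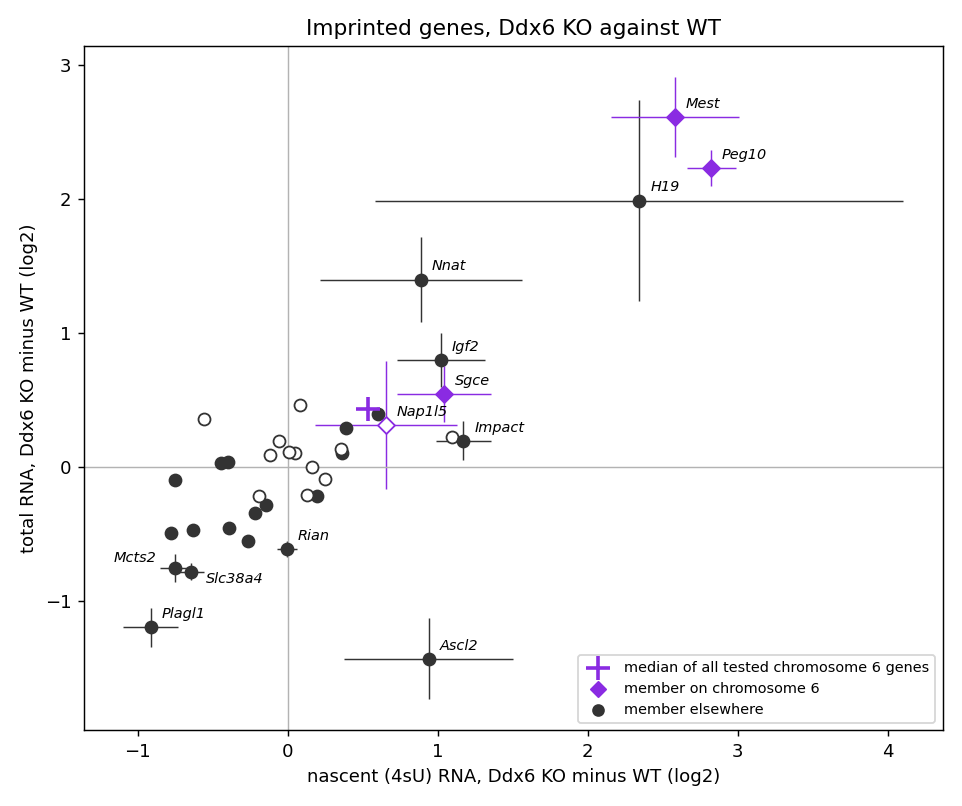
Change in KO against WT (log2) in nascent RNA on the horizontal axis and in total RNA on the vertical axis for the 38 tested imprinted genes, with diamonds for members on chromosome 6 and a cross at the median of all its tested genes; filled points passed in at least 1 assay, open points in neither, and lines show the SE of labelled genes. Mest and Peg10 lie above 2 on both axes, beyond the chromosome 6 median of 0.53 and 0.43.

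Off chromosome 6, Impact was called in nascent RNA, with 74.1, 71.6 and 92.6 CPM in WT, 182 and 185 in clone 1 and 242 and 217 in clone 2 (1.17 ± 0.19, adjusted p = 3.69e-04). Its total RNA was at 157, 166 and 166 CPM in WT, 182 and 170 in clone 1 and 251 and 229 in clone 2, which did not pass with the clones together (0.20 ± 0.15, adjusted p = 0.292). Every KO culture lay far above the WT mean of 79.5 CPM in nascent RNA, while the total RNA of clone 1 was little above that of WT. The ratio of total to nascent RNA fell by 0.97 (± 0.24, adjusted p = 0.0222) and was lower in 4 of 4 KO cultures. That pass was lost without any 1 of the WT cultures and without clone 2 replicate 2, with the value between -1.08 and -0.88 in every setting tried. Fitted with the culture as a block, which pairs the nascent and total RNA split from the same cells, it was -0.98 ± 0.10 (adjusted p = 9.05e-16). That block also takes up level differences between the clones. In the 6-group fit, without it, the ratio against WT was at -1.05 ± 0.12 in clone 1 (adjusted p = 3.89e-09) and -0.91 ± 0.12 in clone 2 (adjusted p = 5.87e-08).

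Igf2, a fetal growth factor expressed from the paternal allele, was called in nascent RNA (1.02 ± 0.30, adjusted p = 0.00383) and rose by 0.80 ± 0.20 in total RNA (adjusted p = 6.98e-04). Its total RNA was at 4.37, 5.95 and 5.97 CPM in WT, 11.9 and 13.5 in clone 1 and 8.55 and 8.52 in clone 2, and its nascent RNA at 5.73, 3.36 and 3.34 in WT, 8.19 and 9.17 in clone 1 and 10.3 and 10.4 in clone 2. All KO cultures were above all WT cultures in both assays. The nascent pass was lost in the paired-end run alone and the total RNA pass in clone 2 alone. H19, at the other end of that cluster, was called in total RNA with the clones together (1.99 ± 0.75, adjusted p = 0.0476), but clone 1 alone was high, and the call was lost with clone 2 alone and without any 1 WT or clone 1 culture (highest adjusted p = 0.264). Nnat, a neuronal proteolipid gene, had 1.92, 1.37 and 2.28 CPM of total RNA in WT, 5.80 and 3.82 in clone 1 and 5.83 and 6.75 in clone 2 (1.40 ± 0.31, adjusted p = 1.55e-04). Nnat reached 3 CPM in the 4 KO total RNA libraries alone, so it was tested because of the group where it is high. It was below the filter in each clone fitted alone with WT and with 3 CPM required in every library of 1 assay, and over the 16 alternatives that gave a value, no filter among them, it was at 1.22 to 1.59 (highest adjusted p = 0.00334). Its nascent RNA was at 1 to 8 counts in every library, too few for a comparison (0.89 ± 0.67, adjusted p = 0.302).

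The called decreases were in Plagl1 and Ascl2. Plagl1 fell by 1.19 (± 0.14, adjusted p = 1.40e-05) in total RNA and by 0.91 (± 0.18, adjusted p = 0.00135) in nascent RNA, where it had 95.4, 88.1 and 91.6 CPM in WT, 49.4 and 47.2 in clone 1 and 63.8 and 63.0 in clone 2. Ascl2, a transcription factor of trophoblast that is imprinted in the placenta, had 6.11, 4.12 and 5.12 CPM of total RNA in WT, 2.65 and 1.37 in clone 1 and 1.49 and 3.05 in clone 2, and fell by 1.43 (± 0.30, adjusted p = 6.34e-05). No KO culture reached the lowest WT culture. Ascl2 reached 3 CPM in the 3 WT and 1 clone 2 total RNA libraries, and was below the filter of 3 CPM in every library of 1 assay. Nascent Ascl2 RNA was at 2 to 10 counts in every library. The stability change of -2.37 ± 0.63 (adjusted p = 0.00713) thus rests on very few nascent reads, and it was lost with DESeq2, in the single-end run and in clone 2 alone.

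The most abundant members per length in WT total RNA were Cd81, Slc38a4, Nap1l4, Impact, Mcts2, Ube3a, Igf2r and Grb10, at 183, 80.7, 75.8, 47.4, 38.6, 26.0, 25.6 and 23.1 CPM per kb. The median over the 38 tested members was 7.86 CPM per kb, close to 7.62 over all tested genes. Cd81, a tetraspanin, fell by 0.47 (± 0.07, adjusted p = 6.57e-08), from 295, 273 and 274 CPM in WT to 236 and 240 in clone 1 and 206 and 224 in clone 2, and in nascent RNA by 0.63 (± 0.08, adjusted p = 2.26e-08). Its nascent values were 119, 147 and 171 CPM in WT, 113 and 114 in clone 1 and 110 and 97.5 in clone 2. Both assays were lower in all KO cultures than in all WT cultures.

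Slc38a4, an amino acid transporter expressed from the paternal allele, fell by 0.78 (± 0.07, adjusted p = 1.47e-14), from 321, 313 and 323 CPM of total RNA in WT to 189 and 206 in clone 1 and 217 and 217 in clone 2. Nascent Slc38a4 RNA was at 110, 139 and 138 CPM in WT, 83.7 and 114 in clone 1 and 89.6 and 96.4 in clone 2, and fell by 0.64 (± 0.09, adjusted p = 1.83e-08), with 1 clone 1 culture above the lowest WT culture. Mcts2, a retrogene expressed from the paternal allele within an intron of its host, fell in both assays, by 0.75 (± 0.10, adjusted p = 8.57e-09) in nascent and 0.75 (± 0.10, adjusted p = 1.80e-08) in total RNA. It had 32.1, 35.9 and 38.1 CPM of total RNA in WT, 26.7 and 23.9 in clone 1 and 24.4 and 19.1 in clone 2, and 86.0, 97.5 and 85.3 CPM of nascent RNA in WT, 63.1 and 58.1 in clone 1 and 53.9 and 70.3 in clone 2. As a retrocopy of Mcts1 its reads may be shared with that gene.

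Igf2r, the receptor that clears Igf2, fell by 0.34 (± 0.06, adjusted p = 3.64e-06) in total RNA, with 232, 233 and 217 CPM in WT, 212 and 198 in clone 1 and 189 and 202 in clone 2. The nascent RNA of Igf2r, at 60.6, 59.5 and 49.8 CPM in WT, 53.4 and 65.9 in clone 1 and 51.6 and 53.8 in clone 2, overlapped between the groups and did not pass (-0.22 ± 0.10, adjusted p = 0.0685). Ube3a, a ubiquitin ligase imprinted in neurons, rose by 0.36 ± 0.08 in nascent RNA (adjusted p = 8.79e-05), from 126, 121 and 164 CPM in WT to 195 and 215 in clone 1 and 213 and 190 in clone 2. Its total RNA, at 276, 288 and 291 CPM in WT, 346 and 341 in clone 1 and 350 and 331 in clone 2, lay higher in all KO than in all WT cultures but did not pass with TMM over all 14 libraries (0.11 ± 0.06, adjusted p = 0.144). It passed as higher with TMM within each assay, with library size only, with no filter, with the stricter filter and with the replicate number as a block.

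Nap1l4, a histone chaperone, fell by 0.21 (± 0.06, adjusted p = 0.00177) in total RNA and by 0.41 (± 0.10, adjusted p = 0.00428) in stability. It had 62.3, 62.9 and 65.5 CPM of nascent RNA in WT, 84.6 and 83.5 in clone 1 and 82.2 and 86.0 in clone 2, while total RNA was at 183, 179 and 181 in WT, 184 and 178 in clone 1 and 160 and 177 in clone 2. The fall in total RNA is on the scaled values and was lost with TMM within each assay, with library size only, with no filter and in clone 1 alone, and the stability pass was lost in clone 1 alone. In the Dlk1-Dio3 cluster, whose non-coding RNAs Meg3, Rian and Mirg come from the maternal allele, Rian had 239, 239 and 229 CPM of total RNA in WT, 182 and 169 in clone 1 and 174 and 163 in clone 2. All KO cultures were below all WT cultures, and the level fell by 0.61 (± 0.06, adjusted p = 1.43e-13). Nascent Rian RNA was at 192, 198 and 183 CPM in WT, 238 and 217 in clone 1 and 208 and 214 in clone 2. Its ratio of total to nascent RNA fell by 0.61 (± 0.09, adjusted p = 8.75e-07), while the nascent change was 0.00 ± 0.07 (adjusted p = 0.977). That nascent change is on the scaled values, with TMM factors of 0.92 to 0.93 in WT and 1.07 in KO nascent libraries. With library size only, nascent Rian RNA passed as higher. Meg3 fell by 0.28 (± 0.09, adjusted p = 0.00452) in total RNA, a pass lost with TMM within each assay, with library size only, with no filter, in clone 1 alone and without WT replicate 1, and Mirg was at 0.20 ± 0.10 (adjusted p = 0.108).

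With the culture as a replicate block, 2 members passed with higher stability (Snrpn 0.47 ± 0.16, adjusted p = 0.0395, and Zrsr1 0.43 ± 0.13, adjusted p = 0.0119) and 7 with lower, which adds Peg10 (-0.60 ± 0.12, adjusted p = 1.26e-04), Peg3 (-0.33 ± 0.12, adjusted p = 0.042) and Ube3a (-0.26 ± 0.09, adjusted p = 0.032) to the 4 named. Rian also passed in 20 of 20 other settings for stability. Peg10, at -0.59 ± 0.23 in the main fit (adjusted p = 0.113), also passed as lower with DESeq2, limma-voom, no filter and each clone alone. It did not pass with TMM within each assay, with library size only or in either run alone. The remaining members that passed in total RNA lay between -0.55 (Trappc9) and 0.40 (Peg12), and those in nascent RNA between -0.78 (Mkrn3) and 0.60 (Peg12).

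The level of total over nascent RNA within a culture, on TMM-scaled CPM with a pseudocount of 0.5, describes how far a transcript accumulates beyond what was labelled in 30 min. In WT its median was 0.66 on the log2 scale over the 38 tested members, against 0.07 over all tested genes. By class it was 1.66 for the maternally expressed, 0.91 for the tissue-restricted and 0.16 for the paternally expressed members. The maternal median falls between Cdkn1c (1.39) and H19 (1.93). These had only 0, 5 and 6 and 1, 6 and 2 nascent counts in WT. The highest values were those of Phlda2 (2.11 ± 0.30 SD, n = 3), Grb10 (2.10 ± 0.30) and Igf2r (1.99 ± 0.11). Neighbours in that order differed by less than their spread. Phlda2 rested on 2, 3 and 5 nascent counts in WT. With a pseudocount of 1 it was at 1.83, below Grb10 at 2.08. Among non-coding RNAs, Mirg (-2.43 ± 0.19), Kcnq1ot1 (-2.41 ± 0.20) and Peg13 (-2.04 ± 0.53) were far below the median, Meg3 (-0.02 ± 0.24) and Rian (0.29 ± 0.03) near it, and H19 (1.93 ± 0.66, and 1.61 to 2.36 with other pseudocounts) far above. The coding genes Mkrn3 (-2.57 ± 0.20) and Zrsr1 (-2.27 ± 0.12) were as low as Kcnq1ot1. In clone 1 and clone 2 the members' medians were 0.32 and 0.24, against 0.01 and 0.02 over all genes.

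**Figure D4:**
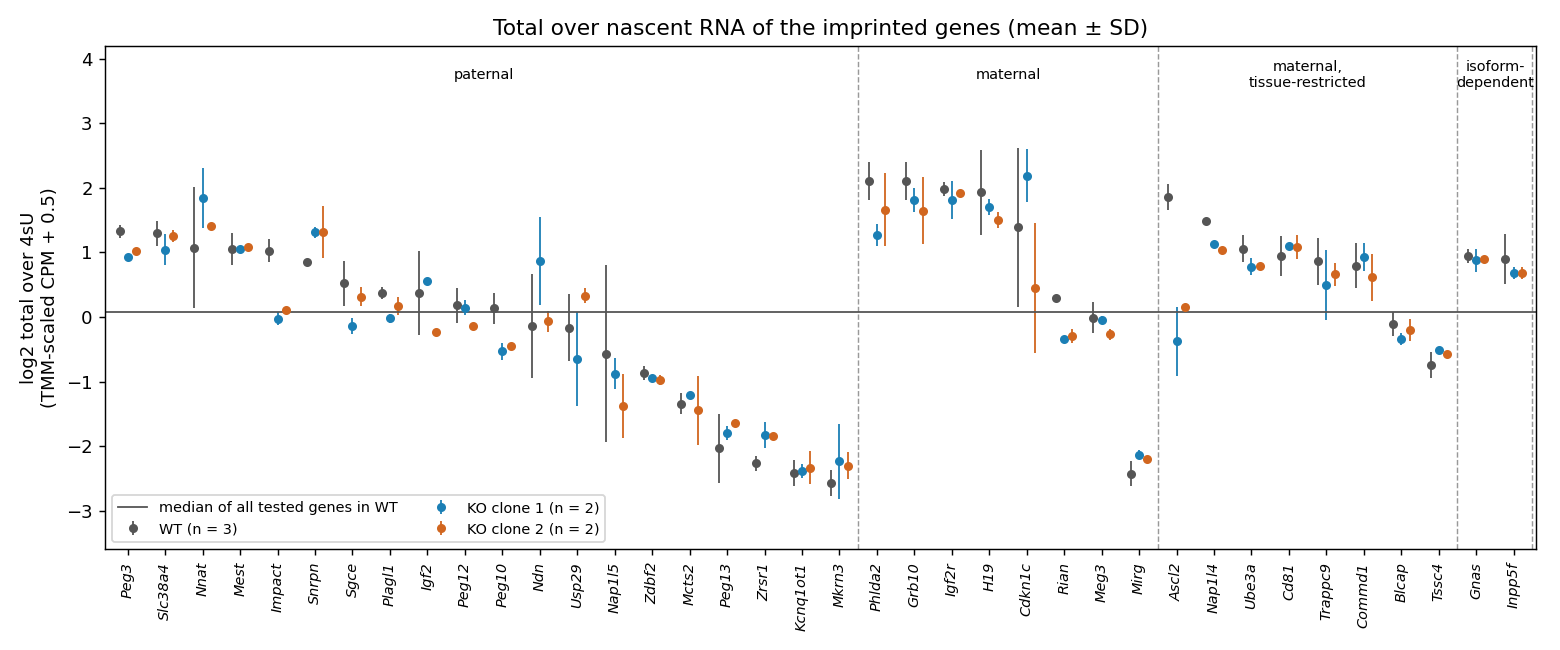
Total over nascent RNA (log2 of the ratio of TMM-scaled CPM, each with 0.5 added) of the 38 tested imprinted genes, grouped by expressed allele, as mean ± SD of 3 WT, 2 clone 1 and 2 clone 2 cultures. Kcnq1ot1, Mirg, Zrsr1 and Mkrn3 lie between -2.57 and -1.83 in every group, while Impact, at 1.03 in WT, lies at -0.03 in clone 1 and 0.10 in clone 2.

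Some members host miRNAs. RefSeq places 2 mature miRNAs in each of H19 and Mest, the members with the largest shifts among hosts, and they are shown with the seed, bases 2 to 8, in capitals. Small RNAs were not measured here.
miR-675-5p (H19): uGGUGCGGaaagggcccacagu
miR-675-3p (H19): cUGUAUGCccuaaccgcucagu
miR-335-5p (Mest): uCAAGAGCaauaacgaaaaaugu
miR-335-3p (Mest): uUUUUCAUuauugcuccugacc
No seed is shared among these 4. In the Dlk1-Dio3 cluster RefSeq places 26 mature miRNAs in Mirg, 6 in Rian and 3 in Meg3. The miRNAs of the miR-290 and miR-302 families prevail in ESCs and repress their targets with the help of Ddx6. For these, the site AGCACTTA, a match to the seed with an A after it, was searched in 3′UTRs. It was found in 1 of 39 members, Zim1, or 2.56%, against 3.11% of all genes with a 3′UTR. Shorter sites, such as the seed match without that A, were not searched. Zim1 was not tested, so this site gives no comparison of members that hold it with other genes.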

How the data were processed

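RNA of 7 cultures was split into 4sU-selected (nascent) and total RNA, giving 14 strand-specific libraries. Per the labels and the study's methods, the authors trimmed reads, aligned them to mm10 with STAR, keeping unique alignments, and assigned them to genes with featureCounts in reverse-stranded mode (Gencode M14 basic annotation), and the counts were deposited unnormalized. Each nascent library had a single-end and a paired-end run, whose counts were summed. The 92 spike-in entries held 0 counts. Genes that share exons or are retrocopies can share or lose reads under unique alignment.

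From these counts, 14518 genes reaching 3 CPM in 3 or more libraries entered edgeR 4.0.16 (R 4.3.3), a robust quasi-likelihood fit with TMM factors over all 14 libraries and Benjamini-Hochberg adjustment over all genes tested. KO against WT was fitted on genotype by assay, clone 2 against clone 1 on 6 groups, and stability as the interaction of group and assay. Adjusted p-values are from these fits unless another tool is named. The SE is the size of the log2 fold change divided by the square root of F. Printed CPM are unscaled by TMM. limma-voom 3.58.1 and DESeq2 1.42.0 were alternatives. The fit was tested on simulated data. Nothing in the labels ties cultures to separate thaws or days, so p-values measure the spread between these cultures.

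The members and lists were chosen with earlier results of these data known. Any member could be named. Values in every library are given for members called in any of the 6 comparisons, for Impact and for the 8 tested members with the highest mean CPM per kb in WT total RNA, and for some other members that passed, chosen after their values were seen. The 4sU and total RNA of a culture come from the same RNA and are therefore paired by the protocol; their deviations from the group means correlated at 0.0427 on average (0.00323 to 0.0824). Replicate numbers of different genotypes mark no shared batch.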

Additional observations from a re-analysis of the deposited data

Results flagged for a closer look

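Imprinted genes that differed between the KO clones were singled out by the test of clone 2 against clone 1. In nascent RNA the log2 differences were -2.24 for H19, -0.94 for Grb10, 0.81 for Kcnq1ot1, 1.01 for Peg3, 0.75 for Mest and 0.48 for Zrsr1. In total RNA they were -2.36 for H19, -3.28 for Cdkn1c, -1.32 for Phlda2, -1.15 for Grb10, 0.86 for Kcnq1ot1, 1.11 for Peg3, 0.45 for Impact, 0.33 for Peg10, 0.78 for Mest and 0.59 for Plagl1.

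Among the 4 KO cultures, 1 culture stood apart from the others by Dixon's ratio for 4 members. These were nascent Ascl2 at 1.29 CPM (4 counts), nascent Snrpn at 29.3 CPM, nascent Igf2r at 65.9 CPM and total Mirg at 25.1 CPM. With 76 sets of 4 cultures examined, chance alone gives about 3.8 such cases, since it marks about 1 in 20.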

How the results depend on the processing

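None of 57 gene results changed direction, and 33 kept their side of the threshold under all alternatives run. Of 1040 values 945 also passed, and the other 95 did not. Depth limits nascent H19, Cdkn1c, Phlda2, Ascl2 and Nnat, at 0 to 35 counts a library. The cause of the changes below was not tested.

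For KO against WT in nascent RNA, members with lower values numbered 5 with library size only (9 as reported). Nap1l4, Rian, Blcap and Inpp5f then also passed as higher. In total RNA that setting added Tssc4, Mirg, Ube3a and Peg13 as higher, and Nap1l4, Meg3 and Mkrn3 no longer passed as lower. The balance of directions thus depends on the scaling. Called members in nascent RNA numbered 2 without chromosome 6, 8 in clone 1 only and 17 with no fold threshold (5 as reported). In total RNA, members with higher values numbered 5 without chromosome 6 (8 as reported), and called members 3 in clone 2 only and 20 with no fold threshold (6 as reported). In stability, members with higher values numbered 1 with TMM within each assay, 2 with no filter and 2 with the culture as a replicate block (0 as reported), or 0 to 1 with any culture left out, and those with lower values 7 with that block (4 as reported). Called members in stability numbered 0 with DESeq2, with 3 CPM in every library of 1 assay, in the single-end run and in clone 2 only, 2 with library size only and in clone 1 only, and 4 with no fold threshold (1 as reported).

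Between the clones, the paired-end run alone left 0 members lower in nascent RNA (2 as reported), 0 of the maternal class among them, and 0 called. With no fold threshold 6 were called in nascent and 10 in total RNA. With any culture left out, 1 to 2 members were lower in nascent RNA, 1 to 2 of them maternal, and 3 to 6 were higher in total RNA, 3 to 6 of them paternal, the 3 being without clone 2 replicate 1. Genes passing in total RNA varied from 20, without clone 1 replicate 1, to 60, with no filter. A replicate block by number, which pairs no shared batch, gave 10 members of 55 genes in total RNA and 6 of 30 in nascent RNA.

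With pseudocounts of 0.1 and 1, the log2 ratio of total to nascent RNA in WT moved by more than 1 SD over the WT cultures for Phlda2 (2.42 with 0.1) and Ascl2 (2.17 and 1.58). It moved further, within a wider SD, for Cdkn1c (1.39 to 2.17 and 1.06), H19 (1.93 to 2.36 and 1.61) and Nnat (1.08 to 1.49 and 0.81).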
